A study of Arabidopsis thaliana with 8 samples.

Results

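The genes described here were those whose transcripts were at least 2-fold higher where the transcription factor BZR1 was kept active, both with and without the phytochrome-interacting factors (PIFs). They were 91 of the 33518 genes counted in dark-grown Arabidopsis thaliana seedlings. The bulk RNA-seq libraries came from 5-day-old etiolated seedlings, harvested whole as far as the labels say, which were raised in darkness on MS medium. The medium held BRZ (brassinazole), an inhibitor of brassinosteroid synthesis, for all groups. All seedlings were of the Col-0 ecotype and fell into 4 genotypes with 2 libraries each. Col-0 was the wild type and bzr1-1D carried the dominant allele of BZR1. The mutant pifq lacked PIF1, PIF3, PIF4 and PIF5. The line pifq;bzr1-1D, called the combined line here, carried all these alleles together. Changes given for the combined line without another reference are against bzr1-1D, and changes given for pifq are against Col-0. Where a pair of changes is given, that in pifq comes first.

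BZR1 is the transcription factor at the end of the brassinosteroid pathway. When the hormone is absent it is phosphorylated by the kinase BIN2 and kept from its targets, and the bzr1-1D protein escapes this control, so that it stays active in seedlings that make little hormone. PIFs are basic helix-loop-helix transcription factors that accumulate in darkness, drive the elongation of the hypocotyl and hold back greening, and PIF4 and BZR1 are known to bind each other and to share many target genes. The comparison of the bzr1-1D allele with and without the PIFs addresses which BZR1 responses need these partners.

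Members were chosen from CPM, the counts per M (mega) of a library's gene counts. The mean of the 2 libraries plus 0.5 had to be at least 2 times as high in bzr1-1D as in Col-0 and in pifq;bzr1-1D as in pifq, with a mean of at least 5 CPM in bzr1-1D and in pifq;bzr1-1D. Of the 94 genes past these limits, EXPA1, EXPA8 and GASA6 were left out because symbols of the XTH, EXPA, IAA, SAUR, GH3, GASA, AGP and LRX families were not taken. XTR6, also known as XTH23, and BRU6, a GH3 gene, remained because their symbols start otherwise. Just inside the ratio limit lay NAP with ratios of 2.002 with PIFs and 3.254 without, AT5G28630 with 2.331 and 2.005, and RGF6 with 2.06 and 2.009. Just outside lay AT5G35460 with 2.403 and 1.999, AT5G46730 with 2.221 and 1.995, and CYP710A1 with 3.183 and 1.989. Because both bzr1-1D ratios chose the members, the bzr1-1D effects are given as a description with no test. The tests are those of pifq against Col-0 and of pifq;bzr1-1D against bzr1-1D, which the choice did not use as contrasts, although they rest on the same 8 libraries.

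Libraries held 16.1 to 34.4 M gene counts, so that 3 counts, the most that a count of 0 allows with 95% confidence, corresponded to 0.0872 to 0.186 CPM. These limits cover counting error only. As a check of the pifq label, PIF1 transcripts were at 47.9 and 47.2 CPM in Col-0 against 21.5 and 22.2 in pifq, and PIF5 transcripts at 36.5 and 35.1 against 10.9 and 11.7. PIF3 was at 212 and 207 CPM in Col-0 against 114 and 108 in pifq. PIF4 went the other way, with 14.5 and 15.1 CPM in Col-0 and 25 and 25.9 in pifq, and 47 and 45.1 in pifq;bzr1-1D. BZR1 itself lay between 33.1 and 46.5 CPM in all 8 libraries, which is no check of bzr1-1D, an allele that acts on the protein. PORA, a marker of etiolated plastids, was at 3328 and 3313 CPM in Col-0, at 2998 and 2948 in bzr1-1D, with 1767 and 1727 in pifq and 984 and 1016 in the combined line. In bulk RNA, fewer cells of a type and less RNA per cell cannot be told apart.

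All 91 members passed the filter on low counts, and 88 would have passed it in Col-0 and pifq alone. The 3 that would not were PXMT1, AT5G35796 and AT5G35965. In 65 members the lower library with bzr1-1D was at least 2-fold above the higher library without it, in both backgrounds. Mean levels of 10 CPM or more were reached by 44 members in Col-0, by 78 in bzr1-1D, 29 in pifq and 66 in the combined line. The median log2 fold change in bzr1-1D against Col-0 was 1.68 and was the same with AT5G35965, which had no counts in Col-0, set at its lower bound. The median in pifq;bzr1-1D against pifq was 1.48. Over all 21221 genes tested, 30.8% were called higher in bzr1-1D than in Col-0 and 28.1% in pifq;bzr1-1D than in pifq, by edgeR's quasi-likelihood test at an adjusted p under 0.05. Nothing is read from these shares, since those contrasts chose the members.

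**Figure D1:**
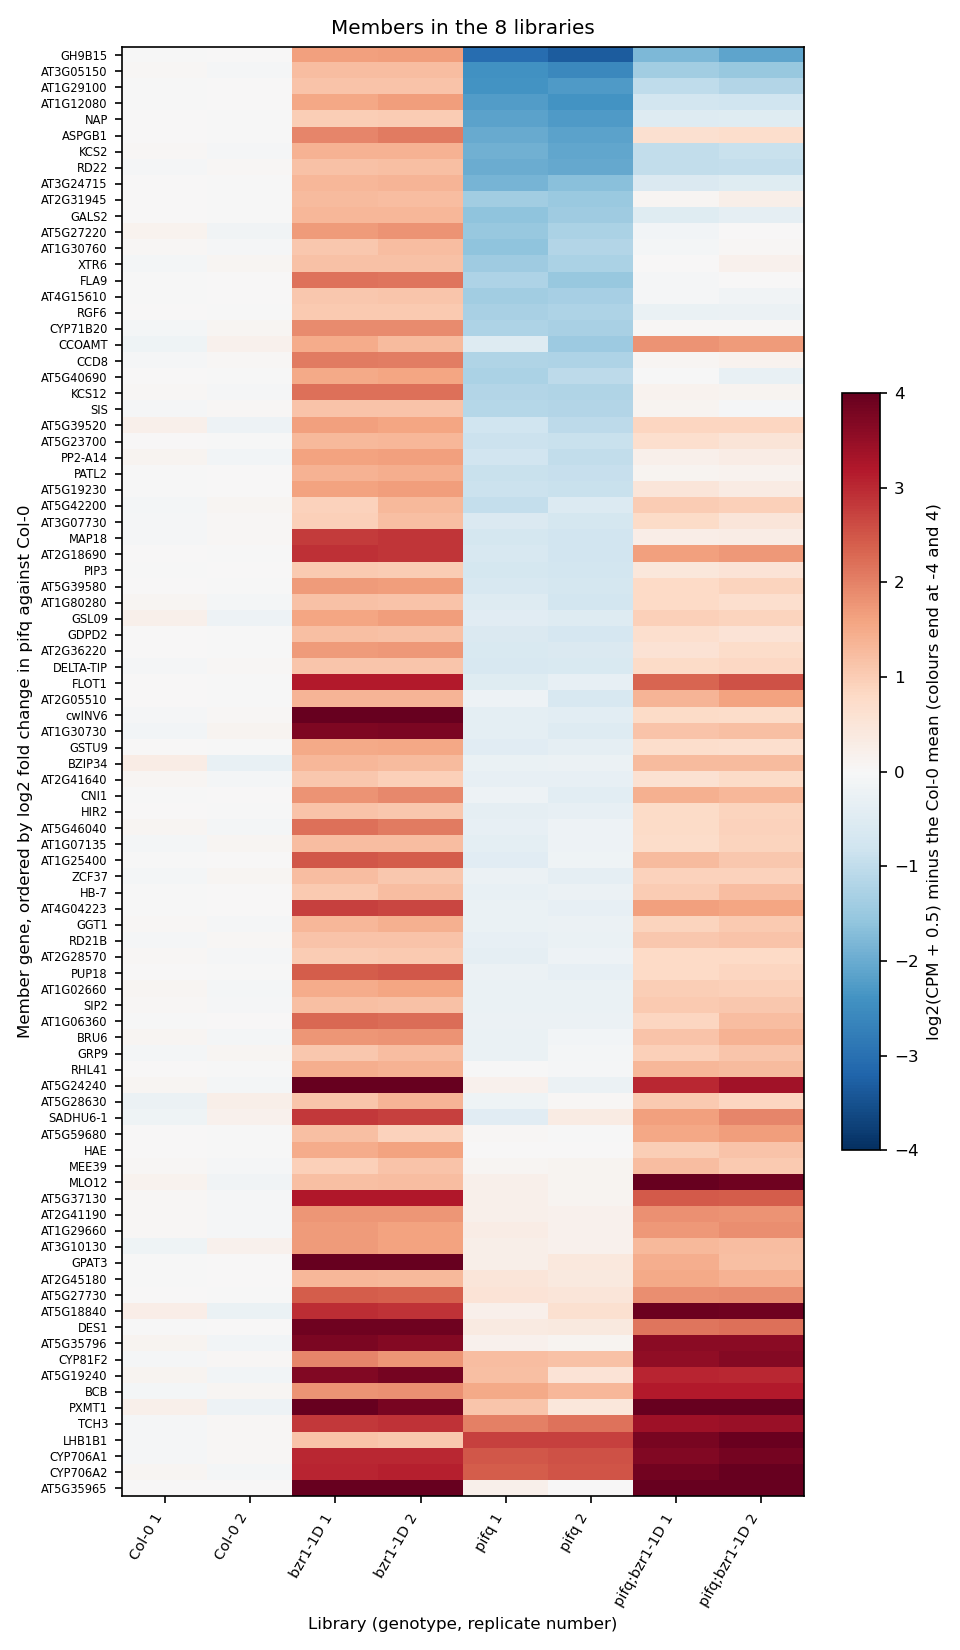
Heat map of the members other than 1 that is left out (rows, ordered by log2 fold change in pifq against Col-0) in the 8 libraries (columns). Colour gives log2(CPM + 0.5) minus the mean of the 2 Col-0 libraries, with colours ending at -4 and 4. All rows are redder in the bzr1-1D columns than in the Col-0 columns by choice of the members, while the pifq columns run from blue (GH9B15, AT3G05150) to red (LHB1B1, CYP706A1). The lowest row, AT5G35965, had 0 counts in Col-0 and 2 in pifq, so that its place in the order rests on 2 counts.

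Most members were lower where the PIFs were missing, both without and with bzr1-1D. In pifq against Col-0, 50 of the 91 members (54.9%) fell and 16 rose by edgeR's quasi-likelihood test at a Benjamini-Hochberg adjusted p under 0.05, while 25 were not called. Over all genes tested, 30.5% were called lower and 32% higher. The libraries of the 2 genotypes did not overlap for any of these 66 members. Among them, 24 fell and 8 rose by at least 2-fold. The shares of all genes tested with separate libraries or a 2-fold change were not counted, so nothing is read from these counts.

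In pifq;bzr1-1D against bzr1-1D, 63 members (69.2%) fell and 17 rose by the same test, and 11 were not called, against 31.6% lower and 33.8% higher over all genes tested. Libraries did not overlap for all 63 that fell and for 15 of those that rose. By at least 2-fold, 35 fell and 7 rose. For these counts too, no share over all genes tested was counted. Leaving aside the pseudogenes AT5G35796 and AT5G35965, whose counts were near 0 in Col-0 and pifq, the members' median log2 fold change was -0.33 in the first contrast and -0.65 in the second, with ranges of -3.25 to 2.89 and -3.51 to 2.9. The median over all genes tested was 0.005 and 0.019.

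Across both contrasts, 45 members fell in both and 10 rose in both. The share of all genes tested with such pairs of calls was not counted. A further 12 members fell in the combined line and were not called in pifq, and 5 rose in the combined line and were not called in pifq. There were 3 that fell in pifq and were not called in pifq;bzr1-1D against bzr1-1D, 8 that were not called in either contrast, and 8 that were called in opposite directions. An absent call in 1 contrast does not show that the contrasts differ, and their difference was not tested.

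**Figure D2:**
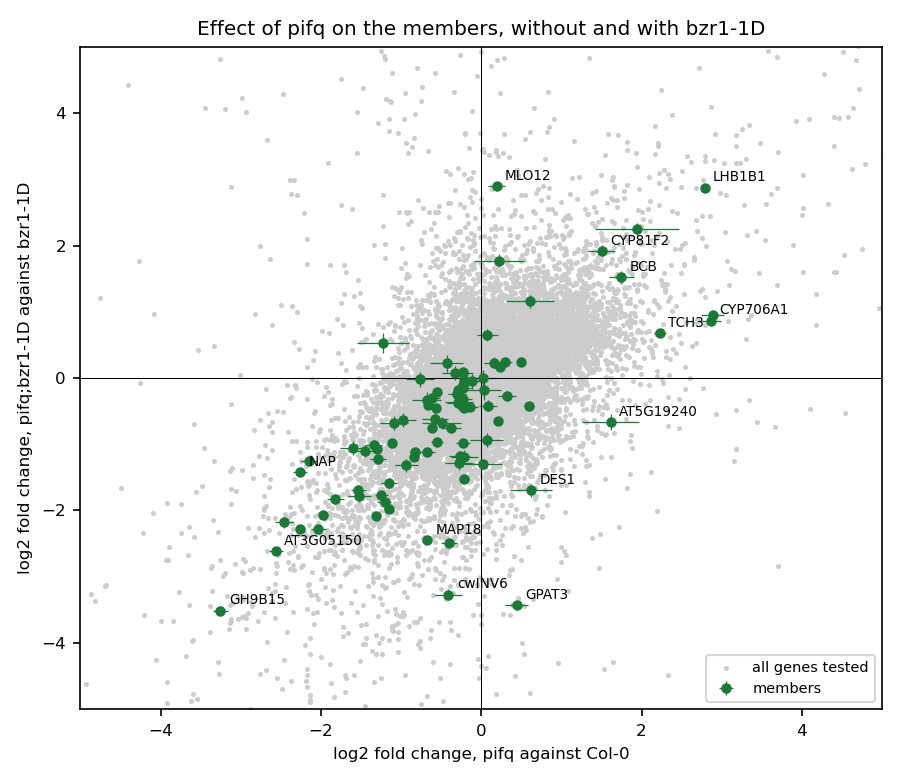
Log2 fold change in pifq against Col-0 (x axis) and in pifq;bzr1-1D against bzr1-1D (y axis) for 89 members (green, bars are SE) and all genes tested (grey). AT5G35796 and AT5G35965 are left out, and grey points beyond 5 in either direction lie outside the axes. Most members lie at the lower left, where 45 were called lower in both contrasts, with GH9B15 farthest out. LHB1B1, CYP81F2, BCB, TCH3 and CYP706A1 lie in the upper right.

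Tissue composition was looked at through 6 marker lists in the same libraries. The summed level of 33 photosystem and light-harvesting genes was 36479 to 38475 CPM in Col-0, 37885 to 38412 in bzr1-1D, 86208 to 87065 in pifq and 91061 to 93607 in the combined line. In pifq against Col-0, 33 of the 33 tested rose, and 32 of them rose in the combined line. The 25 root and root hair genes summed to 2199 to 2200 CPM in Col-0, 1456 to 1458 in bzr1-1D, 4585 to 4690 in pifq and 2483 to 2490 in the combined line. Of 23 tested, 5 rose and 10 fell in pifq against Col-0 and 6 rose and 4 fell in the combined line.

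The 19 seed storage and late embryogenesis genes summed to 262.6 to 266.9 CPM in Col-0, 66.5 to 69.2 in bzr1-1D, 143 to 145 in pifq and 161 to 164.9 in the combined line. Of 16 tested, 10 fell and 5 rose in pifq, and 14 rose and 1 fell in the combined line. The 21 xylem and secondary wall genes summed to 174.8 to 177.1, 303.2 to 305.1, 109 to 113.3 and 125 to 126.1 CPM in the same order of genotypes. Of 18 tested, 12 fell and 1 rose in pifq, and 17 fell in the combined line. Of the 21, 1 had no counts in any library. The 17 stomatal lineage genes summed to 393.9 to 395.6, 433.5 to 439, 386.9 to 390.4 and 329.9 to 336.1 CPM, with 13 higher and 2 lower in pifq and 8 higher and 3 lower in the combined line. In the other 5 lists no gene was without counts in all 8 libraries. The part of these shifts in the members' changes was not tested.

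The steepest falls without the PIFs were those of a cell wall enzyme. GH9B15 (AT4G23560), a family 9 glycosyl hydrolase of the type that cleaves glucan chains in the wall, was at 43.2 and 45 CPM in Col-0, at 140 and 143 in bzr1-1D, with 4.85 and 3.94 in pifq and 12.4 and 9.75 in the combined line. No genotype's libraries overlapped another's, and both genotypes without PIFs were below Col-0. It fell by 3.25 ± 0.09 (SE) on the log2 scale in pifq (edgeR adjusted p = 1.4e-25) and dropped by 3.51 ± 0.06 in the combined line (edgeR adjusted p = 1.3e-30). The bzr1-1D effect was 1.71 ± 0.05 with the PIFs and 1.45 ± 0.12 without them. The gene overlaps another on the opposite strand.

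FLA9 (AT1G03870), a fasciclin-like arabinogalactan protein of the cell surface, was at 105 and 107 CPM in Col-0, at 478 and 473 in bzr1-1D, with 44.3 and 36.9 in pifq and 101 and 107 in the combined line. The pifq;bzr1-1D libraries thus overlapped the range of the Col-0 libraries. FLA9 fell by 1.31 ± 0.05 in pifq (edgeR adjusted p = 4.9e-21) and dropped by 2.09 ± 0.04 in the combined line (edgeR adjusted p = 6.5e-29). XTR6 (AT4G25810), a xyloglucan endotransglucosylase that cuts and rejoins the chains tethering cellulose, showed a similar order at a lower level. It was at 12 and 13.5 CPM in Col-0, at 29.2 and 29.3 in bzr1-1D, with 4.46 and 5.03 in pifq and 12.8 and 14.2 in the combined line.

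GALS2 (AT5G44670), a galactan synthase that lengthens pectin side chains, was at 15.7 and 15.5 CPM in Col-0 but 39.5 and 40.3 in bzr1-1D. It was at 4.77 and 5.56 CPM in pifq and 11.1 and 12.1 in the combined line, and fell by 1.53 ± 0.10 in pifq and dropped by 1.69 ± 0.07 in the combined line. RD22 (AT5G25610), a BURP-domain protein known for its response to drought, was at 88.3 and 95 CPM in Col-0, at 208 and 214 in bzr1-1D, with 22.8 and 21.8 in pifq and 46.4 and 46.9 in the combined line. The peroxidase AT5G39580 and the glucan synthase-like gene GSL09 (AT5G36870), a member of the callose synthase family, also fell in both contrasts. AT5G39580 fell by 0.62 ± 0.06 in pifq and dropped by 0.75 ± 0.04 in the combined line, while GSL09 fell by 0.58 ± 0.17 in pifq and dropped by 0.62 ± 0.11 in the combined line.

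MAP18 (AT5G44610), a protein that destabilises cortical microtubules, was at 44.3 and 47.8 CPM in Col-0, at 323 and 335 in bzr1-1D, with 28.2 and 26.7 in pifq and 55.1 and 56.4 in the combined line. The bzr1-1D libraries stood far above all others. Its log2 bzr1-1D effect was 2.87 ± 0.04 with the PIFs and 1.09 ± 0.05 without them. MAP18 lay near the limit of the rule, with a CPM ratio of 2.015 without the PIFs. It was not among the members that remained whichever library was left out. It fell by 2.45 ± 0.04 in the combined line (edgeR adjusted p = 2.5e-31) and dropped by 0.68 ± 0.05 in pifq. cwINV6 (AT5G11920), a fructan exohydrolase of the cell wall invertase family, was at 2.91 and 3.16 CPM in Col-0, at 58 and 55.6 in bzr1-1D, with 2.21 and 2.11 in pifq and 5.49 and 5.34 in the combined line. Its log2 bzr1-1D effect was 4.26 ± 0.08 with and 1.40 ± 0.15 without the PIFs. Its fall of 0.41 ± 0.17 in pifq (edgeR adjusted p = 0.034) was lost when any 1 Col-0 or pifq library was left out, with adjusted p of 0.0597 to 0.128.

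By product name, the wall classes held 5 members. That count misses XTR6 and GSL09, and the rule had left out the XTH, EXPA, AGP and LRX families. Glycosyl hydrolases and transferases gave 3 of 363 tested genes (GH9B15, GALS2 and AT2G41640), or 3.3% of the members against 1.71% of all genes tested. Hydroxyproline-rich and fasciclin proteins gave 1 of 184 (1.1% against 0.867%), and peroxidases and laccases 1 of 94 (1.1% against 0.443%). Pectin enzymes and inhibitors gave none of 124 (0.584% of all genes tested). AT2G41640, a family 61 glycosyltransferase, was at 8.81 and 7.93 CPM in Col-0, at 18.1 and 16.6 in bzr1-1D, with 6.6 and 6.53 in pifq and 13 and 14.7 in the combined line. Its falls of 0.30 ± 0.11 and 0.24 ± 0.08 were not called by DESeq2 (adjusted p = 0.0714 and 0.121) or when single libraries were left out. Without Col-0 replicate 1 its adjusted p in pifq was 0.209, without either pifq replicate 0.0602 and 0.0628, and without bzr1-1D replicate 1 or pifq;bzr1-1D replicate 1 its adjusted p in the second contrast was 0.14 and 0.301.

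**Figure D3:**
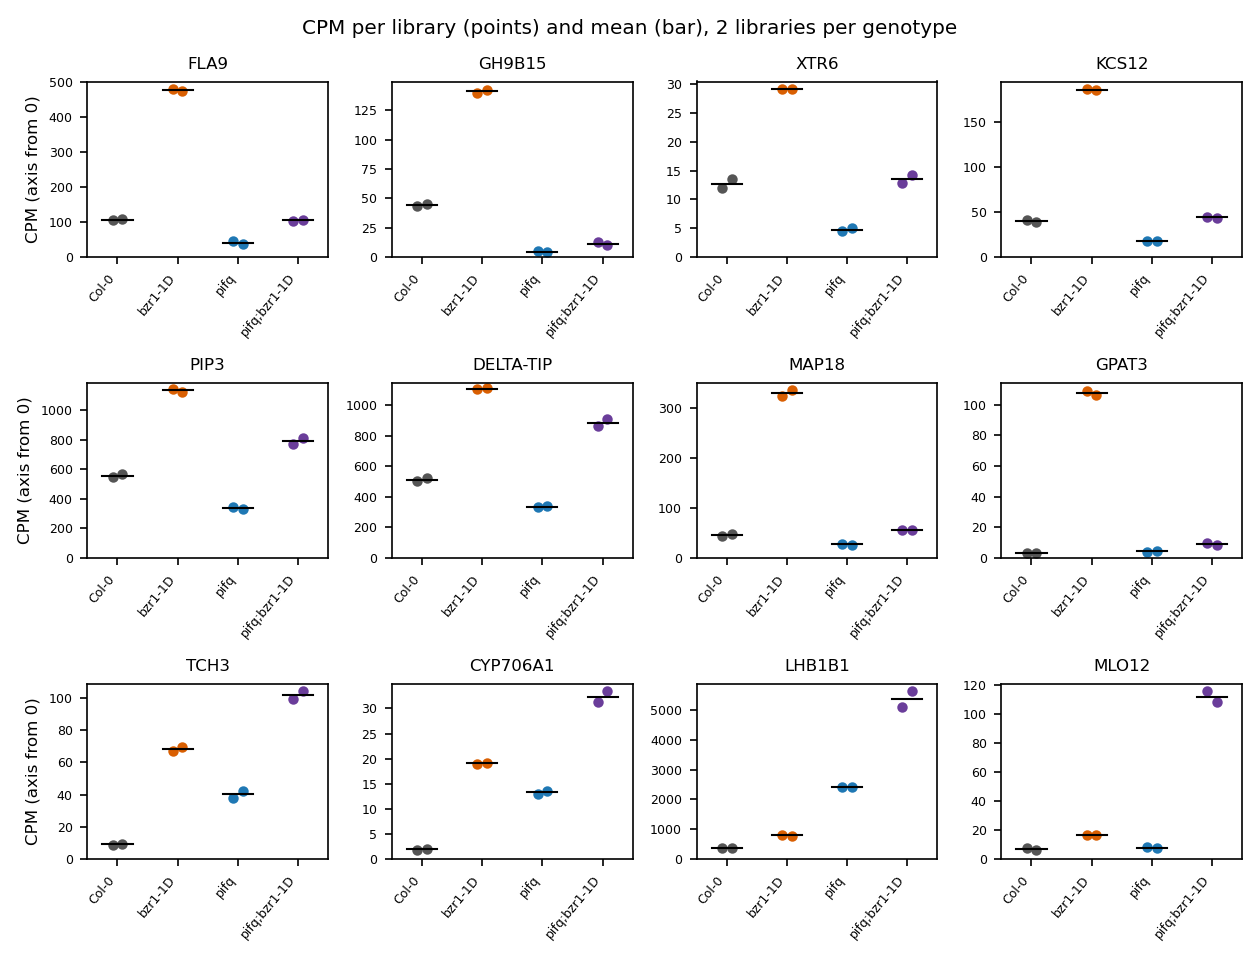
CPM of 12 members in each library (points) with the mean of the 2 libraries of a genotype (bar), on axes that start at 0. FLA9, GH9B15, XTR6 and KCS12 are highest in bzr1-1D and lowest in pifq. MAP18 and GPAT3 stand high in bzr1-1D alone. LHB1B1 and CYP706A1 are higher in both genotypes without PIFs than in their counterparts with them, and MLO12 stands high in pifq;bzr1-1D alone.

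The aquaporins PIP3 and DELTA-TIP were among the most counted members. PIP3 (AT4G35100), a water channel of the plasma membrane, was at 549.8 and 566.9 CPM in Col-0, at 1149 and 1122 in bzr1-1D, with 342.7 and 332.5 in pifq and 771.6 and 811.3 in the combined line. Both pifq;bzr1-1D libraries were above both Col-0 libraries. DELTA-TIP (AT3G16240), a water channel of the vacuolar membrane, was at 500.5 and 523.2 CPM in Col-0, at 1105 and 1109 in bzr1-1D, with 330.6 and 337.1 in pifq and 861.8 and 909.5 in the combined line.

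Both aquaporins fell without the PIFs, but by less than 2-fold. PIP3 fell by 0.66 ± 0.04 in pifq (edgeR adjusted p = 4.6e-17) and dropped by 0.41 ± 0.04 in the combined line (edgeR adjusted p = 6e-12). DELTA-TIP fell by 0.55 ± 0.04 in pifq and dropped by 0.21 ± 0.04 in the combined line. Their log2 bzr1-1D effects were 1.05 ± 0.04 and 1.14 ± 0.04 with the PIFs and 1.3 ± 0.04 and 1.48 ± 0.04 without.

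Solute carriers split. AT3G05150, a sugar-transporter-like protein of the major facilitator superfamily, was at 28.8 and 27.1 CPM in Col-0, at 66.5 and 66.4 in bzr1-1D, with 4.81 and 4.26 in pifq and 10.4 and 9.37 in the combined line, so that both genotypes without PIFs were below Col-0. It fell by 2.56 ± 0.09 in pifq (edgeR adjusted p = 8e-23) and dropped by 2.61 ± 0.07 in the combined line (edgeR adjusted p = 1.4e-26). PUP18 (AT1G57990), a purine permease, was at 29.8 and 29.4 CPM in Col-0, at 160 and 167 in bzr1-1D, with 25.3 and 23.5 in pifq and 52 and 53.9 in the combined line. It fell by 0.22 ± 0.06 in pifq, a call that was lost without pifq replicate 2 (adjusted p = 0.0536), and dropped by 1.52 ± 0.04 in the combined line.

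The amino acid transporter-like AT2G41190 was nearly the same with and without the PIFs. It was at 25.6 and 24.3 CPM in Col-0 and 28.6 and 28 in pifq, and at 85.7 in both bzr1-1D libraries and 89.6 and 88 in the combined line. It rose by 0.24 ± 0.06 and 0.17 ± 0.04, and its log2 bzr1-1D effects were 1.80 ± 0.05 with and 1.72 ± 0.05 without the PIFs. AT5G18840, another major facilitator protein, was at 0.901 and 0.487 CPM in Col-0, at 8.56 and 8.23 in bzr1-1D, with 0.854 and 1.34 in pifq and 17.5 and 17.1 in the combined line. It rose by 1.16 ± 0.10 in the combined line (edgeR adjusted p = 4.8e-12). In pifq against Col-0 its log2 fold change of 0.61 ± 0.30 was not called, but was called at 1.21 without Col-0 replicate 1 and at 0.909 without pifq replicate 1. It overlaps another gene on the same strand.

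By product name, 7 of 923 tested transporters and channels were members, which is 7.69% of the members against 4.35% of the genes tested. That count includes SIP2 (AT3G57520), a raffinose-family enzyme caught by its symbol, and misses DELTA-TIP. SIP2 was at 105 and 99.5 CPM in Col-0, at 237 and 232 in bzr1-1D, with 84.4 and 84.7 in pifq and 210 and 215 in the combined line. It fell by 0.21 ± 0.04 in pifq (edgeR adjusted p = 2.5e-05), and in the combined line its log2 fold change was -0.03 ± 0.04 (edgeR adjusted p = 0.49).

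Lipid and cuticle genes gave 6 of 370 tested genes of their class, or 6.59% of the members against 1.74% of the genes tested. Of these, KCS2, AT2G45180 and GPAT3 were not among the members that remained whichever library was left out. KCS12 (AT2G28630) and KCS2 (AT1G04220) are 3-ketoacyl-CoA synthases, which elongate the very-long-chain fatty acids of waxes and suberin. KCS12 was at 41.2 and 38.8 CPM in Col-0, at 186 and 185 in bzr1-1D, with 17.4 and 17.2 in pifq and 43.9 and 43.4 in the combined line. It fell by 1.15 ± 0.06 in pifq (edgeR adjusted p = 3.4e-18) and dropped by 1.97 ± 0.04 in the combined line (edgeR adjusted p = 1.4e-28). KCS2 was at 22.4 and 20.9 CPM in Col-0, at 57.4 and 57.6 in bzr1-1D, with 5.39 and 4.79 in pifq and 10.7 and 11.4 in the combined line, and fell by 2.03 ± 0.09 in pifq and dropped by 2.28 ± 0.07 in the combined line. Both KCS genes were lowest in pifq, and KCS2 was below Col-0 in both genotypes without PIFs.

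GPAT3 (AT4G01950), of the glycerol-3-phosphate acyltransferase family that makes glycerolipids and cutin precursors, had the largest difference between the bzr1-1D effects among the members with 10 CPM or more. It was at 3.17 and 3.31 CPM in Col-0, at 109 and 106 in bzr1-1D, with 3.92 and 4.46 in pifq and 9.82 and 8.19 in the combined line. The bzr1-1D libraries thus stood far above all others. Its log2 bzr1-1D effect was 5.09 ± 0.08 with the PIFs and 1.21 ± 0.12 without. GPAT3 lay near the limit of the rule, with a CPM ratio of 2.027 without the PIFs. It was not among the members that remained whichever library was left out. It fell by 3.43 ± 0.07 in the combined line (edgeR adjusted p = 3.1e-30), and its rise of 0.44 ± 0.15 in pifq (edgeR adjusted p = 0.0089) was lost without Col-0 replicate 1 or pifq replicate 2, at adjusted p of 0.0906 and 0.107.

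AT2G45180, a lipid-transfer-like protein of the seed albumin superfamily, was at 608.8 and 614.3 CPM in Col-0, at 1520 and 1516 in bzr1-1D, with 855.1 and 798.9 in pifq and 1742 and 1591 in the combined line. It rose by 0.50 ± 0.04 in pifq (edgeR adjusted p = 1e-12) and by 0.25 ± 0.04 in the combined line. The GDSL lipase-like AT1G29660 was at 11.3 and 10.8 CPM in Col-0, at 36.9 and 34.5 in bzr1-1D, with 13.7 and 12.4 in pifq and 37.8 and 41.3 in the combined line. It rose by 0.30 ± 0.09 in pifq, which was lost without pifq replicate 1 (adjusted p = 0.0741), and by 0.25 ± 0.06 in the second contrast. The desaturase-like AT1G06360 fell by 1.19 ± 0.10 in the combined line, with a log2 fold change of -0.21 ± 0.17 in pifq that was not called.

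PATL2 (AT1G22530), a patellin that binds membrane phosphoinositides, was at 127 and 129 CPM in Col-0, at 339 and 349 in bzr1-1D, with 68.7 and 67.4 in pifq and 137 and 140 in the combined line, and fell by 0.84 ± 0.04 in pifq and dropped by 1.2 ± 0.04 in the combined line. Beyond the members, the list of epidermis, cuticle and trichome genes had KCS2 as its only member. Of its 23 genes tested, 9 rose and 7 fell in pifq against Col-0, and 4 rose and 14 fell in the combined line, with medians of 0.06 and -0.51. Its 28 genes in the files summed to 1538 to 1554 CPM in Col-0, 2694 to 2695 in bzr1-1D, 1570 to 1576 in pifq and 1761 to 1780 in the combined line. KCS1, a further enzyme of wax synthesis, averaged 39.3 CPM in Col-0 but 195 in bzr1-1D, but 22.8 in pifq and 34.4 in the combined line, which kept it out of the members.

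Genes of hormone synthesis and signalling among the members were not counted as a class beside all genes tested. The rule had also left out the IAA, SAUR, GH3 and GASA families. CCD8 (AT4G32810), a carotenoid cleavage dioxygenase of strigolactone synthesis, was at 16.6 and 17.5 CPM in Col-0, at 73.5 and 72.3 in bzr1-1D, with 7.14 and 6.94 in pifq and 17.9 and 19.1 in the combined line. It fell by 1.21 ± 0.08 in pifq (edgeR adjusted p = 2.7e-14) and dropped by 1.88 ± 0.06 in the combined line (edgeR adjusted p = 1.8e-24). BRU6 (AT4G37390), an auxin-conjugating GH3 enzyme, was at 13 and 11.5 CPM in Col-0 and 10.2 and 11.4 in pifq, and at 42.6 and 44 in bzr1-1D and 27.6 and 32.7 in the combined line. It fell by 0.44 ± 0.06 in the second contrast, and its log2 fold change of -0.14 ± 0.10 in pifq was not called.

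RGF6 (AT4G16515), the precursor of a secreted root meristem growth factor peptide, was at 12.6 and 12.1 CPM in Col-0, 25.9 in both bzr1-1D libraries, with 4.73 and 4.95 in pifq and 10.2 and 10.3 in the combined line, and fell by 1.29 ± 0.10 in pifq and dropped by 1.23 ± 0.08 in the combined line. HAE (AT4G28490), a receptor kinase known from floral organ abscission, was at 6.48 and 6.42 CPM in Col-0, at 19.1 and 20.7 in bzr1-1D, with 6.6 and 6.49 in pifq and 13.1 and 14.8 in the combined line. It fell by 0.42 ± 0.08 in the combined line, while in pifq its log2 fold change of 0.08 ± 0.11 was not called. Its class of kinases gave 5 of 1165 tested genes, which is 5.49% of the members and 5.49% of the genes tested. Among them, MEE39 (AT3G46330) and AT5G59680 are leucine-rich repeat kinases with a log2 fold change of 0.23 ± 0.09 and 0.65 ± 0.09 in the combined line. The call of MEE39 was lost under DESeq2 (adjusted p = 0.229) and without bzr1-1D replicate 1 or pifq;bzr1-1D replicate 1 (adjusted p = 0.295 and 0.483).

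The lists of the brassinosteroid pathway and its known growth targets held no member. None of the 16 tested helix-loop-helix growth regulators, 15 brassinosteroid synthesis and inactivation genes and 19 brassinosteroid signalling genes met the rule. The same held for the 37 tested genes of auxin synthesis, transport and perception, 19 of gibberellin, 21 of ethylene and the apical hook, 14 of cytokinin response, 18 shade and phytochrome targets, 29 cell expansion regulators and 13 defence and heat stress genes. In pifq against Col-0, 13 helix-loop-helix genes fell and 1 rose, 11 brassinosteroid synthesis genes fell and 2 rose, and 10 signalling genes fell and 5 rose. In the combined line, the counts were 10 and 4, 9 and 2, and 10 and 6. Since the members were 91 of 21221 genes tested, a count of 0 in lists this short says nothing particular about them.

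In the other lists, counts of genes that fell and rose in pifq were 15 and 10 for auxin, 8 and 1 for gibberellin, 16 and 2 for ethylene, 3 and 8 for cytokinin response, 15 and 1 for shade targets, 22 and 5 for cell expansion, and 2 and 8 for defence and heat stress. In the combined line they were 17 and 11, 10 and 4, 13 and 2, 3 and 8, 11 and 3, 18 and 5, and 0 and 8, by edgeR's test. Over all genes tested, 30.5% fell and 32% rose in pifq, and 31.6% fell and 33.8% rose in the combined line. These shares also stand beside the counts of the lists above.

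Transcription factors gave 3 members of 1423 tested by product name, or 3.3% of the members against 6.71% of all genes tested, and NAP, which the product name does not place there, is a further one. NAP (AT1G69490), a NAC factor known for promoting leaf senescence, was at 23.9 and 23.1 CPM in Col-0, at 47.3 and 47.9 in bzr1-1D, with 4.93 and 4.5 in pifq and 16.4 and 16.5 in the combined line. It fell by 2.26 ± 0.09 in pifq (edgeR adjusted p = 2.6e-21) and dropped by 1.42 ± 0.06 in the combined line (edgeR adjusted p = 6.1e-20), with log2 bzr1-1D effects of 1.04 ± 0.06 with and 1.88 ± 0.10 without the PIFs. ASPGB1 (AT3G16150), an asparaginase that releases ammonium from asparagine, also fell in both contrasts and had a larger bzr1-1D effect without the PIFs. Unlike NAP, ASPGB1 was higher in the combined line than in Col-0. It was at 17.9 and 17.4 CPM in Col-0, at 70.6 and 76.5 in bzr1-1D, with 4 and 3.65 in pifq and 28.1 and 28.8 in the combined line, and its log2 bzr1-1D effect was 2.08 ± 0.06 with and 2.96 ± 0.09 without the PIFs.

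The other factors, HB-7, BZIP34 and RHL41, were called in neither contrast. HB-7 (AT5G46880), a homeobox factor, was at 6.02 and 6.13 CPM in Col-0, at 13 and 15 in bzr1-1D, with 4.85 and 5.03 in pifq and 12.9 and 14.8 in the combined line. RHL41 (AT5G59820), a zinc finger protein also known as ZAT12 and induced by many stresses, was at 1.95 CPM in both Col-0 libraries, 6.17 and 5.89 in bzr1-1D, 1.9 and 1.87 in pifq and 5.69 and 5.4 in the combined line. Its log2 fold changes with PIF loss were 0.02 ± 0.20 and 0.00 ± 0.13. BZIP34 (AT2G42380) had a log2 fold change of -0.33 ± 0.16 in pifq (edgeR adjusted p = 0.072), which was called without Col-0 replicate 2 (adjusted p = 0.00188) and with no filter on low counts (adjusted p = 0.0438).

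TCH3 and BCB rose without the PIFs in both contrasts. TCH3 (AT2G41100), a calmodulin-like protein known for its response to touch, was at 8.64 and 9.44 CPM in Col-0, at 67.3 and 69.7 in bzr1-1D, with 37.9 and 42.4 in pifq and 99.6 and 104 in the combined line. It rose by 2.23 ± 0.07 in pifq (edgeR adjusted p = 2.6e-23) and by 0.68 ± 0.05 in the combined line (edgeR adjusted p = 1.2e-14). BCB (AT5G20230), a blue copper-binding protein, was at 1.66 and 1.95 CPM in Col-0, at 7.46 and 7.7 in bzr1-1D, with 6.09 and 5.28 in pifq and 20 and 20.4 in the combined line, and rose by 1.75 ± 0.15 and 1.53 ± 0.09.

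Cytochrome P450 enzymes gave 4 of 186 tested genes, or 4.4% of the members against 0.876% of all genes tested, and 3 of them rose in both contrasts. CYP81F2 (AT5G57220), which modifies indole glucosinolates in defence, was at 1.57 and 1.75 CPM in Col-0, at 7.82 and 6.87 in bzr1-1D, with 4.54 and 4.34 in pifq and 24.9 and 26.9 in the combined line. It rose by 1.5 ± 0.17 (edgeR adjusted p = 1.6e-09) and 1.92 ± 0.09 (edgeR adjusted p = 2.2e-19). CYP706A1 (AT4G22690) was at 1.83 and 2 CPM in Col-0, at 18.9 and 19.2 in bzr1-1D, with 13 and 13.6 in pifq and 31.2 and 33.4 in the combined line. Its close neighbour CYP706A2 (AT4G22710), with 1 counted gene between them, was at 1.45 and 1.22, 14.8 and 15.2, 9.31 and 10.06, and 25.8 and 28.6 CPM in the same order. As related copies their reads cannot be fully assigned.

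The CYP706A genes rose by 2.87 ± 0.12 and 2.89 ± 0.15 in pifq and by 0.87 ± 0.07 and 0.96 ± 0.07 in the combined line. Their log2 bzr1-1D effects were 3.35 ± 0.11 and 3.48 ± 0.13 with the PIFs and 1.35 ± 0.07 and 1.55 ± 0.08 without. CYP71B20 (AT3G26180) went the other way. It was at 18.1 and 20 CPM in Col-0, at 72 and 72.5 in bzr1-1D, with 7.8 and 7.39 in pifq and 19.6 and 19.5 in the combined line, and fell by 1.25 ± 0.08 in pifq and dropped by 1.77 ± 0.06 in the combined line.

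LHB1B1 (AT2G34430), an antenna protein of photosystem II, rose most by level. It was at 350.6 and 379.9 CPM in Col-0, at 801.2 and 778.3 in bzr1-1D, with 2408 and 2417 in pifq and 5116 and 5630 in the combined line. All libraries without PIFs were above all libraries with them. It rose by 2.79 ± 0.04 (edgeR adjusted p = 2.5e-32) and 2.88 ± 0.04 (edgeR adjusted p = 6.2e-33). Its log2 bzr1-1D effects were 1.14 ± 0.04 and 1.23 ± 0.04, and none of the 33 photosystem genes of the list were members. LHB1B1 has near-identical copies in the LHCB1 family, so the assignment of its reads is uncertain.

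MLO12 and PXMT1 were highest in the combined line. MLO12 (AT2G39200), of the MLO family of membrane proteins that powdery mildew fungi need for entry, was at 7.56 and 6.03 CPM in Col-0, at 16.1 and 16.4 in bzr1-1D, with 7.88 and 7.34 in pifq and 116 and 108 in the combined line. Its log2 bzr1-1D effect was 1.25 ± 0.09 with the PIFs and 3.96 ± 0.07 without. It rose by 2.90 ± 0.06 in the combined line (edgeR adjusted p = 2.1e-29), and in pifq its log2 fold change of 0.19 ± 0.11 was not called, though it was at 0.39 without Col-0 replicate 1 (adjusted p = 0.0229). It overlaps another gene on the opposite strand. PXMT1 (AT1G66700), a methyltransferase, was at 0.233 and 0.0487 CPM in Col-0, at 9.53 and 8.4 in bzr1-1D, with 0.854 and 0.365 in pifq and 40.5 and 38.4 in the combined line.

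In the combined line, PXMT1 rose by 2.25 ± 0.09 (edgeR adjusted p = 1.8e-21). The rise of PXMT1 in pifq, 1.94 ± 0.52, was lost without pifq replicate 1 (adjusted p = 0.136). The summed seed genes were at 161 to 164.9 CPM in the combined line and 66.5 to 69.2 in bzr1-1D. They were at 143 to 145 CPM in pifq and highest in Col-0, at 262.6 to 266.9. Their part in the changes of MLO12 and PXMT1 was not tested.

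FLOT1 (AT5G25250), a flotillin of membrane microdomains, was at 1.51 and 1.46 CPM in Col-0, at 17.58 and 17.41 in bzr1-1D, with 0.931 and 1.1 in pifq and 9.52 and 11.1 in the combined line, with log2 bzr1-1D effects of 3.57 ± 0.13 and 3.39 ± 0.16. CNI1 (AT5G27420), a ubiquitin ligase of the carbon and nitrogen response, was at 4.48 and 4.53 CPM in Col-0, at 16.8 and 18.6 in bzr1-1D, with 3.8 and 3.25 in pifq and 12.9 and 12 in the combined line. Neither was called in pifq, and in the combined line FLOT1 fell by 0.68 ± 0.09 and CNI1 fell by 0.38 ± 0.09. HIR2 (AT3G01290), a hypersensitive induced reaction protein, was at 96 and 94.9 CPM in Col-0, at 213 and 204 in bzr1-1D, with 73.5 and 76.5 in pifq and 164 and 176 in the combined line, and fell by 0.28 ± 0.04 in pifq and dropped by 0.19 ± 0.04 in the combined line.

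DES1 (AT5G28030), a cysteine desulfhydrase that releases hydrogen sulfide, was at 0.814 and 0.827 CPM in Col-0, at 19 and 19.2 in bzr1-1D, with 1.2 and 1.22 in pifq and 5.39 and 5.52 in the combined line. It fell by 1.70 ± 0.10 in the combined line (edgeR adjusted p = 1.7e-16). Its rise of 0.62 ± 0.26 in pifq (edgeR adjusted p = 0.042) was lost with any 1 Col-0 or pifq library left out, at adjusted p of 0.0768 to 0.173. RD21B (AT5G43060), a cysteine protease, was at 191 and 199 CPM in Col-0, at 426 and 434 in bzr1-1D, with 157 and 163 in pifq and 413 and 432 in the combined line. It fell by 0.22 ± 0.04 in pifq, and its rise of 0.08 ± 0.04 in the second contrast was called by edgeR (adjusted p = 0.036) with overlapping libraries, and not by DESeq2 (adjusted p = 0.159) or without bzr1-1D replicate 1 or pifq;bzr1-1D replicate 2 (adjusted p = 0.183 and 0.238).

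Members with no well-known role included some of the largest bzr1-1D effects. AT5G24240, a phosphatidylinositol 4-kinase-like protein, was at 1.74 and 1.56 CPM in Col-0, at 51.3 and 48.4 in bzr1-1D, with 1.9 and 1.34 in pifq and 16.9 and 21.4 in the combined line. Its log2 bzr1-1D effect was 4.92 ± 0.11 with the PIFs and 3.59 ± 0.14 without. AT2G18690 was at 9.77 and 9.68 CPM in Col-0, at 77.1 and 73.9 in bzr1-1D, with 6.09 and 5.56 in pifq and 31.4 and 33.3 in the combined line. AT1G30730, a berberine bridge enzyme-like protein, was at 9.28 and 10.9 CPM in Col-0, at 139 and 143 in bzr1-1D, with 7.53 and 6.82 in pifq and 22.8 and 23.6 in the combined line, and fell by 2.49 ± 0.05 in the combined line (edgeR adjusted p = 6.3e-29).

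AT5G37130, a prenylyltransferase-superfamily protein, was at 63.2 and 58 CPM in Col-0, at 559 and 566 in bzr1-1D, with 69.3 and 65.9 in pifq and 333 and 330 in the combined line. AT1G12080, annotated as vacuolar calcium-binding, was at 242 and 252 CPM in Col-0, at 727 and 792 in bzr1-1D, with 51.5 and 46.5 in pifq and 148 and 141 in the combined line, and fell by 2.26 ± 0.05 in pifq and dropped by 2.28 ± 0.04 in the combined line. AT1G29100, a heavy metal-associated protein, fell by 2.46 ± 0.11 in pifq and dropped by 2.18 ± 0.08 in the combined line. AT4G15610, of a membrane protein family, was at 214 and 216 CPM in Col-0, at 458 and 463 in bzr1-1D, with 81 and 85.7 in pifq and 208 and 195 in the combined line.

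Not all members encode proteins. Of the 91, 87 are annotated as protein coding, and AT4G04223, SADHU6-1, AT5G35796 and AT5G35965 are not. AT4G04223, a noncoding RNA, was at 12.2 and 12.3 CPM in Col-0, at 84.6 and 80.6 in bzr1-1D, with 10.2 and 9.7 in pifq and 39.5 and 37.7 in the combined line. SADHU6-1 (AT3G02515), a pseudogene, was at 2.73 and 3.55 CPM in Col-0, at 25.1 and 23.6 in bzr1-1D, with 2.13 and 4.02 in pifq and 10.7 and 13.6 in the combined line. AT5G35965, a pseudogene, had no counts in Col-0 but 12.7 and 14.6 CPM in bzr1-1D, at least 117-fold higher against a floor of 3 counts per library, and it had 2 counts in pifq and 8.98 and 9.06 CPM in the combined line. AT5G35796, also a pseudogene, had 3 counts in Col-0 but 6.8 and 6.38 CPM in bzr1-1D, 0.116 and 0.0812 CPM in pifq, and 6.1 and 6.08 CPM in the combined line. In both, transcripts were nearly confined to the 4 libraries with bzr1-1D.

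The size of the bzr1-1D effect varied with the PIFs from member to member. Outside AT5G35796 and AT5G35965, it was larger with the PIFs in 53 members and larger without them in 36, with a median difference of -0.09 on the log2 scale and a range of -3.87 (GPAT3) to 2.71 (MLO12). The median difference over all genes tested was -0.056. For 74 of these 89 members the effects lay within 2-fold of each other. The effect was at least 2-fold larger with the PIFs in 12, namely GPAT3, cwINV6, DES1, AT5G19240, AT1G30730, CYP706A1, CYP706A2, MAP18, TCH3, AT5G24240, PUP18 and AT5G27730. It was at least 2-fold larger without them in 3, among them MLO12 and CCOAMT. The effects come from the contrasts that chose the members, and no share over all genes tested was counted. Nothing is therefore read from these counts.

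**Figure D4:**
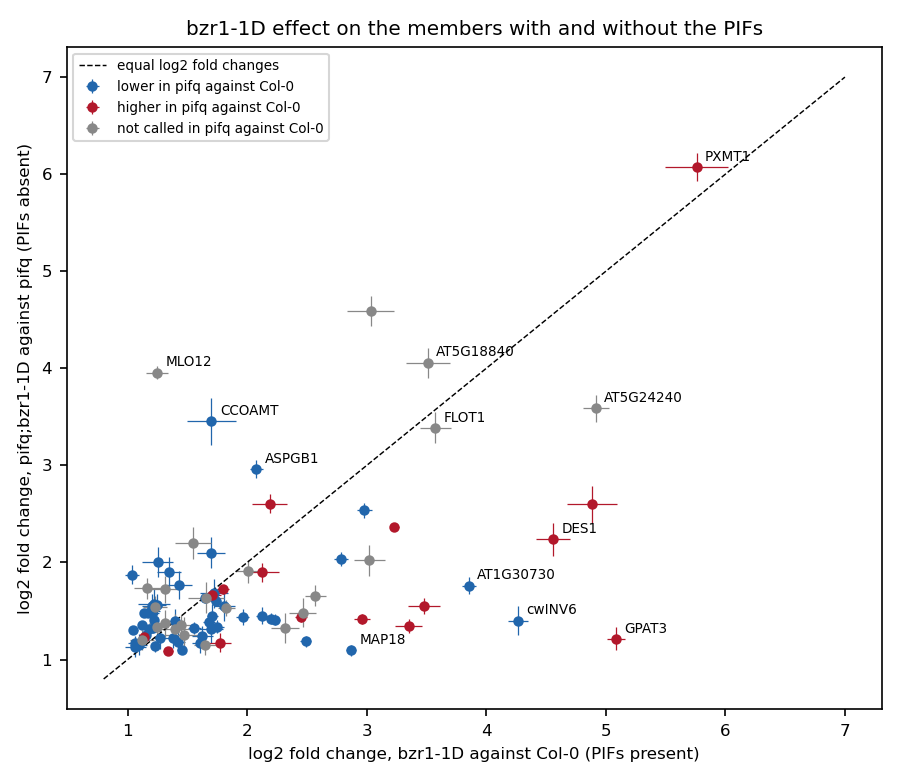
Log2 fold change in bzr1-1D against Col-0 (x axis) and in pifq;bzr1-1D against pifq (y axis) for 89 members, with SE as bars and colour by the call in pifq against Col-0. AT5G35796 and AT5G35965 are left out. Both axes show edgeR's log2 fold changes for the contrasts whose CPM ratios chose the members, so high values on both follow from that choice. GPAT3, cwINV6 and MAP18 lie far below the dashed line of equal effects, and MLO12 and CCOAMT above it.

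The members were not spread evenly over the genome. By the TAIR10.1 annotation, 35 of the 91 (38.5%) were on chromosome 5, which held 23.2% of the nuclear genes tested. Chromosome 1 held 18 members (19.8%, against 26.3% of genes tested), chromosome 2 14 (15.4% against 15.4%), chromosome 3 11 (12.1% against 19.8%) and chromosome 4 13 (14.3% against 15.3%). When the tested genes of chromosome 5 were put in order and cut into 5 equal parts, these held 2, 6, 17, 6 and 4 members. The central part thus held 18.7% of the members and 4.64% of the nuclear genes tested.

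The 17 members of that central part were FLOT1, RD22, AT5G27220, CNI1, AT5G27730, DES1, AT5G28630, AT5G35796, AT5G35965, GSL09, AT5G37130, AT5G39520, AT5G39580, AT5G40690, GDPD2, AT5G42200 and RD21B. Genes that met the mirrored rule, with both bzr1-1D ratios at 0.5 or less, numbered 66. Of those, 29 (43.9%) were on chromosome 5 and 12 (18.2%) in the same central part. BZR1 itself lies on chromosome 1, and the nearest member to it there was AT1G80280, 455 tested genes away. The labels do not say how the lines were crossed, so an effect of the bzr1-1D allele and a difference in a chromosome segment shared by both lines that carry it cannot be told apart for these genes. Nearest to the PIF genes lay BZIP34, 51 tested genes from PIF4, AT2G18690, 113 from PIF1, and SIP2, 117 from PIF5. Nearest to PIF3 was AT1G07135, 211 tested genes away. A part of segments shared by both lines without PIFs in the members' changes was not tested.

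The calls without the PIFs had similar shares outside that region. Of the 74 members outside the central part, 41 (55.4%) fell and 13 rose in pifq, and 50 (67.6%) fell and 16 rose in the combined line. On chromosomes 2, 3 and 4 alone, 21 of 38 (55.3%) fell and 8 rose in the first contrast, and 25 (65.8%) fell and 8 rose in the second. On chromosome 5, 17 of 35 (48.6%) fell in pifq and 24 (68.6%) in the combined line. On chromosomes 1 to 4, 33 of 56 (58.9%) and 39 (69.6%) fell. Shares over all genes tested were not counted by region, so nothing is read from these counts.

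**Figure D5:**
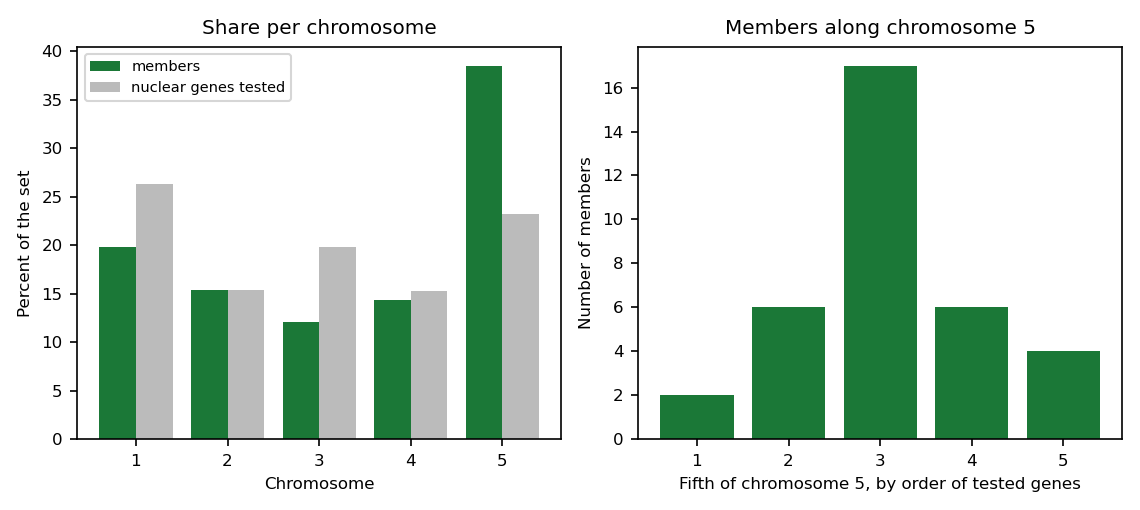
Left, percent of the 91 members (green) and of the nuclear genes tested (grey) on each chromosome. Right, number of members in each of 5 equal parts of chromosome 5 by order of tested genes. Chromosome 5 holds 38.5% of the members against 23.2% of the genes tested, and 17 of its 35 members lie in the central part.

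Some members sit close together. AT5G19230 and AT5G19240, which encode related GPI-anchored glycoproteins, are adjacent. AT5G19230 was at 37 and 37.7 CPM in Col-0, at 116 and 119 in bzr1-1D, with 20.4 and 19.7 in pifq and 52.2 and 46.7 in the combined line, whereas AT5G19240 was at 0.436 and 0.292, 10.7 and 11.7, 1.47 and 0.771, and 6.57 and 6.46 CPM. In pifq, AT5G19230 fell by 0.83 ± 0.06 and AT5G19240 rose by 1.62 ± 0.36. The glycine-rich protein genes GRP9 and AT2G05510 lie with 7 counted genes between them, and neither was called in either contrast. Related copies such as these, and the 19 members that overlap another gene, are uncertain one by one because it is not stated whether counting used strand or how reads that fit more than 1 place were handled.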

How the data were processed

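The authors deposited whole-number counts of reads per gene, 1 table per library, made with TopHat and HTSeq on the TAIR9 build per the submitters' processing notes. Neither their versions nor the strand setting is given in the sources used here. Reads assigned to no gene (2.68% to 4.27%) or to several (1.95% to 2.08%) stayed out of library sizes. CPM were computed from those counts. The tests used edgeR 4.0.16 in R 4.3.3. After TMM scaling (factors of 0.942 to 1.04) and filterByExpr, 1 quasi-likelihood fit took all 8 libraries, estimating each genotype's mean with 4 degrees of freedom left over. P-values were adjusted by Benjamini-Hochberg over all 21221 genes left. Errors are SE of log2 fold changes. The script was tested on simulated data. Files were matched by gene code to the TAIR10.1 annotation for names, products and gene order (32709 genes, 809 unmatched). That is another build, so no coordinates or sequences are given.

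The members, 16 gene lists and 13 product classes were chosen with earlier results of these data known. In the lists, 14 of 375 symbols had no match or matched another gene, which left 326 genes tested. Named members were those with the largest smaller ratio, the highest CPM, the largest changes with PIF loss, the largest differences of bzr1-1D effects, those nearest the ratio limit, and up to 4 per list or class. Some were left out, 1 other member is not reported here, and BRU6, CCD8, XTR6, RD22, GSL09, AT1G06360, CNI1, HIR2, CCOAMT, AT5G59680, GRP9, AT2G05510, AT5G19230, AT4G04223, SADHU6-1, AT5G35796 and KCS1 were added after their values were seen. Whether replicate libraries stem from separate cultures is not said in the labels, so the spread behind the p-values may be technical only. Replicates differed by more than counting noise, with a median chi-square of 1.23 to 1.41 times that expected. The mean chi-square per gene, about 1 under counting noise alone, was 2.47 in Col-0 and 2.17 in bzr1-1D. It was 1.72 in pifq and 5.5 in pifq;bzr1-1D. Alternatives were DESeq2 1.42.0, RLE size factors, no filter, a replicate block, other limits of the rule and leaving out each library.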

Additional observations from a re-analysis of the deposited data

Results flagged for a closer look

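Some members were called by edgeR in both contrasts, in opposite directions. In each contrast, the libraries of the compared genotypes did not overlap for them. For each of them the change in pifq;bzr1-1D against bzr1-1D minus that in pifq against Col-0 is given on the log2 scale, and the difference was not tested. It equals the difference between the bzr1-1D effects without and with the PIFs, which chose the members. GPAT3 had -3.87, DES1 -2.32, AT5G19240 -2.29, AT5G27730 -1.02, AT5G37130 -0.865 and AT3G10130 -0.597, being higher in pifq than in Col-0 and lower in pifq;bzr1-1D than in bzr1-1D. CCOAMT (AT1G67980), a caffeoyl-CoA methyltransferase, had 1.75, being lower in the first contrast and higher in the second. It was at 1.4 and 1.95 CPM in Col-0, at 5.59 and 4.69 in bzr1-1D, with 1.01 and 0.284 in pifq and 7.05 and 6.58 in the combined line. Of the 7 genes, AT5G27730, DES1 and AT5G37130 lie in the central part of chromosome 5.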

How the results depend on the processing

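The number of members, 91, moved most with the rule: a ratio of 1.5 gave 315, a ratio of 3 gave 20 and a minimum of 1 CPM gave 150. Constants of 0.1 and 2 gave 96 and 61, a minimum of 10 CPM 61, TMM-scaled CPM 107 and leaving out 1 library 87 to 94. Of the 91, 72 remained members whichever library was left out. Over the left-out libraries, 44 to 50 members fell and 13 to 16 rose in pifq against Col-0, and 60 to 63 fell and 15 to 17 rose in pifq;bzr1-1D against bzr1-1D. DESeq2 gave 48 and 14, and 60 and 14. Same-numbered libraries deviated together little (correlations of -0.013 to 0.04), so the numbers do not pair them. A replicate block gave 50 and 16, and 63 and 17, and changed no call of a named member. Over all alternatives, 32 values of named members lost their call, 5 gained one and no called value changed direction. Uncalled values near 0, such as those of RHL41 and AT5G28630, changed sign. The promoter motif counts, and their other window, were not run, because no genome of the build of the counts was used here. Depth limits PXMT1, AT5G35796 and AT5G35965, which were near 0 in Col-0 and pifq.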
